A study of Mus musculus with 3 samples.

Results

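Retinoid x receptor α (RXRα) binds DNA as the shared partner of many nuclear receptors, including those for retinoic acid (RARα), fatty acids, bile acids and oxysterols. The dimers contact a pair of hexamers, called half-sites, most often as a direct repeat whose spacing differs with the partner. In liver these receptors govern lipid, bile acid and xenobiotic metabolism, and much of their binding lies away from promoters in distal enhancers.

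The regions described here were the RXRα-bound regions of mouse liver that lay in gene-poor stretches of the genome, outside every protein-coding gene body and more than 100 kb from any protein-coding gene start. They were selected on measured values, since a region was a run of 32 bp bins with an RXRα signal at least 20 times the input signal, or at least 20 times the genome mean of input where that was larger, joined across gaps of up to 200 bp. Of 42117 RXRα regions, 3728 met the rule (8.85%). The remainder comprised 5293 promoter regions within 1 kb from a gene start, 9801 near regions at 1 to 10 kb, 14144 intragenic regions inside a gene body and over 10 kb from a start, and 9151 intergenic regions at 10 to 100 kb and outside gene bodies.

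The chromatin came from livers of male wild type C57BL/6 mice, 3 months old per the labels, with no treatment named. There was 1 library of chromatin precipitated with an anti-RXRα antibody, 1 of input chromatin and 1 of chromatin precipitated with an anti-RARα antibody. No antibody had a replicate library, so shares of regions are given with 95% Wilson intervals that cover counting error only, and no p-value is given. The intervals treat regions as independent, although 55.2% of gene-poor regions had another RXRα region within 10 kb. Whether intervals overlap is therefore a description and not a test of a difference. The labels do not say how many livers a library held.

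The RXRα track summed to 9.99994 M reads and the input track to 9.99929 M. The label of liver was checked with marker genes, and 10 of 10 hepatocyte markers had an RXRα region within 10 kb of the start, against 2 of 8 stellate, 2 of 7 Kupffer, 4 of 6 endothelial and 2 of 5 cholangiocyte markers and 39.8% of all protein-coding genes. Whole liver holds all of these cells, and binding in few cells or weak binding in many cannot be told apart.

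The sequences below are those under the summits of the strongest gene-poor regions that can be printed and whose sequence occurs once in the genome. Each is named by the protein-coding genes to its left and right, spans 120 bases around the highest bin on the plus strand of NCBI37/mm9, and has every half-site (the word AGGTCA, the word GGGTCA, the word AGTTCA or the word GGTTCA, on either strand) in capitals.
Irf2bp2/Tomm20, chr8:129258805-129258924, strand +: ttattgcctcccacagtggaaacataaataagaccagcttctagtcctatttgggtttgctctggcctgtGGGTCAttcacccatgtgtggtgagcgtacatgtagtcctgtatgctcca
Rtl1/Dio3, chr12:111210709-111210828, strand +: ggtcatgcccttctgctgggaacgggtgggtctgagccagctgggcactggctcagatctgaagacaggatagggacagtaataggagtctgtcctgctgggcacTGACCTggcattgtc
Med13l/Tbx3, chr5:119782709-119782828, strand +: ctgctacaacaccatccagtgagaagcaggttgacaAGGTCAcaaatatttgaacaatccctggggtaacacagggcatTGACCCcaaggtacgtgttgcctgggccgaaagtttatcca
The Irf2bp2/Tomm20 sequence held 1 half-site and the Rtl1/Dio3 sequence 1, whereas the Med13l/Tbx3 sequence held 2 on opposite strands and far apart. None of these windows held a direct repeat of the half-sites.

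The next set shows exact direct repeats of the half-sites that lay within 100 bp from the summit of a gene-poor region. These were the 8 gene-poor regions with the highest ratio among those with a direct repeat spaced by 1 to 5 bases that can be printed, and each printed sequence occurred 1 time in the genome. They are written on the strand on which the repeat reads in that orientation, with only both half-sites of the repeat in capitals. A further half-site in lower case opens the Odz2/Mat2b sequence, and another overlaps the first half-site of the repeat in Maf/Dynlrb2.
Fut8/Gm6657, chr12:79087994-79088033, strand -: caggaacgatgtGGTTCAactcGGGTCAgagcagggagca
Tet2/Cxxc4, chr3:133413201-133413237, strand +: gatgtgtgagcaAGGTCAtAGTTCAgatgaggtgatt
Samsn1/Nrip1, chr16:76225567-76225605, strand -: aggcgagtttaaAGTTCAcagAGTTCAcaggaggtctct
Maf/Dynlrb2, chr8:118355819-118355859, strand +: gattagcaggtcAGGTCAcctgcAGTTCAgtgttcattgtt
Odz2/Mat2b, chr11:38484174-38484212, strand +: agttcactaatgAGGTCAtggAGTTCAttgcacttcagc
Btg1/Dcn, chr10:96712519-96712556, strand +: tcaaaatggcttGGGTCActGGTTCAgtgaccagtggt
Tmem182/Gm9915, chr1:41616331-41616367, strand +: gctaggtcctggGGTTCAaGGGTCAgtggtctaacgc
Mpdz/Nfib, chr4:81435277-81435305, strand -: ataatcagatctGGTTCAtgGGTTCAtag
The spacing was 4 bases for Fut8/Gm6657, 1 for Tet2/Cxxc4, 3 for Samsn1/Nrip1, 5 for Maf/Dynlrb2, 3 for Odz2/Mat2b, 2 for Btg1/Dcn, 1 for Tmem182/Gm9915 and 2 for Mpdz/Nfib. The heights of these regions, counted as reads over the highest bin, were 200, 183, 127, 82, 130, 259, 135 and 150 in the same order. Every spacing from 1 to 5 thus occurred among these 8 regions, and none more than 2 times. The repeats lay from 12 bp (Tmem182/Gm9915) to 90 bp (Mpdz/Nfib) from the summit. Whether RXRα bound the repeats themselves was not tested.

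The last set shows a sequence that recurred under many gene-poor regions, named family A here and described further on. These 4 copies, 110 bases each, came from family A regions with high RXRα signal whose block can be printed, and half-sites are in capitals.
Akr1d1/Trim24, chr6:37697678-37697787, strand +: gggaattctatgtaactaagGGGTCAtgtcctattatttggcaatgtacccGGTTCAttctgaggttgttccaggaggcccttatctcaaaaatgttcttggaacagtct
Gm11161/Gm597, chr1:27562774-27562883, strand +: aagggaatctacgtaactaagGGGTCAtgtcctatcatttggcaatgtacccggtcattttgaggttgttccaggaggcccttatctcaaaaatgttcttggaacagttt
Chl1/Cntn6, chr6:104176726-104176835, strand +: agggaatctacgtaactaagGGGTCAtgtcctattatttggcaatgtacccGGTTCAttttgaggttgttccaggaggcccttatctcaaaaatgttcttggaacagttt
Nxph1/Ndufa4, chr6:10235521-10235630, strand +: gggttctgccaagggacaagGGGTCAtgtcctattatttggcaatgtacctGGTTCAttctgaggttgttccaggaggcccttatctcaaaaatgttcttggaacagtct
The regions carried 77 reads between Akr1d1 and Trim24, 67 between Gm11161 and Gm597, 51 between Chl1 and Cntn6 and 48 between Nxph1 and Ndufa4. Counting substitutions, insertions and deletions as edits, the copies differed by 3 edits (Gm11161/Gm597 and Chl1/Cntn6) to 16 edits (Gm11161/Gm597 and Nxph1/Ndufa4) over 110 bases. All 4 held the left-hand half-site GGGTCA, and all but that between Gm11161 and Gm597 held the right-hand GGTTCA on the same strand. The exact block of 110 bases occurred 8 times in the genome for Akr1d1/Trim24 and 3 times for Chl1/Cntn6.

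RXRα regions were sparse in gene-poor sequence. The gene-poor space covered 793 Mb of the 2559 Mb of sequenced genome (30.99%) and held 4.70 RXRα regions per Mb, against 21.7 per Mb in the rest. Of all 32 bp bins, 0.216% passed the 20-fold threshold genome-wide and 0.0608% in gene-poor space, which is the background that the count of 3728 regions is read against. Since the rule used this contrast, these values are a description.

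The height of a gene-poor region was 30 reads at the median, with 14 at the 10th percentile, 84 at the 90th and 469 at most. Medians in the other classes were 31 reads for intergenic, 30 for intragenic, 31 for near and 25 for promoter regions. The 90th percentile of 84 reads lay below those of intergenic (95), intragenic (89) and near regions (94) and above that of promoter regions (71). Every class had passed the same threshold on RXRα signal, so these heights are a description of selected regions. The median ratio over input was 36.5 in gene-poor and 31.5 in promoter regions. The input within 10 kb around the region was lower in gene-poor stretches, with a median of 0.764 reads per bin against 0.879 for intergenic, 0.968 for intragenic and 1.04 for promoter regions. In 39.2% of gene-poor regions no bin held an input read. The ratio rested on the genome mean of 0.603 reads per bin in these and in any other region whose bin of highest ratio held no input read. The part of the lower local input in the ratios was not tested.

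The signal was narrow around the summit. The bins near the summit at or above 50% of it, touching or not, added up to 224 bp at the median. This was the same as in intergenic, intragenic and near regions and less than the 256 bp in promoter regions. Each read filled 5 bins, and 664 gene-poor regions (17.8%) were at this minimum of 5 bins, against 15.1% of all regions. A width of 32 bp was found in 693 gene-poor regions (18.6%), against 20.3% of all regions. Around summits of single-copy gene-poor regions, mean RXRα coverage was 42.9 reads per bin at the summit and 2.63 at 992 bp to the left, with input at 0.974 and 0.934. Between these points input was higher, at 1.74 reads per bin 160 bp to the left of the summit. Since the rule divides by input, the lower input at the summit is a description of selected bins. Promoter regions kept a broader shoulder, with 34.5 reads at the summit and 4.51 at the same distance.

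**Figure D1:**
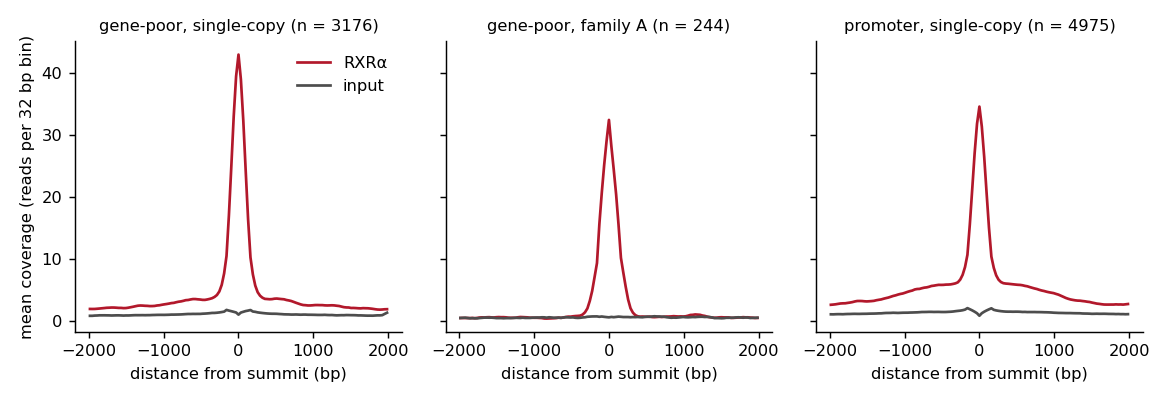
Mean RXRα (red) and input (grey) coverage in reads per 32 bp bin against the distance from the summit, for single-copy gene-poor regions, gene-poor regions of family A and single-copy promoter regions. The summit reaches 42.9 in single-copy gene-poor regions and 32.4 in family A, where coverage on both sides falls to the input level, whereas promoter regions keep a shoulder.

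Values close to the thresholds show how the rule acted. The 3 gene-poor regions just inside the ratio had 41 reads over 2 input reads near Gm11678, 124 over 6 near Hmcn1 and 62 over 3 near Zfp36l1. Just outside were 51 regions whose best bin held 20 reads over 1 input read, a ratio that the scaling of the tracks moved to 19.9987, and these included regions nearest Zfp648, Olig3 and Ifngr1. Just inside the distance were regions at 100060 bp from Ccdc85a, 100069 bp from Mrpl21 and 100130 bp from Ccnd1, the gene of cyclin D1, with 45, 17 and 25 reads. Just outside were regions at 99888 bp from Bhmt-ps1, 99867 bp from AI429214 and 99841 bp from Stx16, with 13, 129 and 56 reads. At the lower limit of height, 211 gene-poor regions had 13 reads.

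The highest ratios were found between genes of many kinds. In all 10 leading regions the bin of highest ratio held 0 input reads, so these ratios rest on the genome mean of input, although each region held input reads in other bins. That bin need not be the highest one, as in the first region, where it held 281 reads. The first was a region at chr18:51621473-51621920 between Prr16 and Gm4950, 344 kb from the start of Prr16, with a height of 350 reads and a ratio of 466. The second lay at chr8:129258561-129259008, 141 kb from Irf2bp2, which encodes a binding partner of interferon regulatory factor 2, with 230 reads. The third lay at chr17:4626049-4626688, 368 kb from Arid1b, a subunit of the SWI/SNF chromatin remodelling complex, with 469 reads, the highest of all gene-poor regions. In the windows of the first and the third only 32.5% and 16.6% of the 32-base words occurred once in the genome, so their reads could not be placed with certainty.

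The fourth, at chr12:111210561-111210912, lay 307 kb from Dio3, the deiodinase that inactivates thyroid hormone, and had 242 reads. The fifth, at chr5:119782657-119782880, lay 338 kb from Tbx3, a T-box factor required for liver development, and had 204 reads. The others were a region of 191 reads nearest Prok2, one of 206 reads nearest Gadd45g, one of 203 reads nearest Tcfap2c, one of 183 reads nearest Inhbb and one of 170 reads nearest Cdc5l. Of these 10 regions, 8 consisted of single-copy sequence, 8 held a half-site within 100 bp from the summit and 8 overlapped a deposited RARα peak, 3 of them with a score over 20. Over all gene-poor regions 38.9% overlapped any deposited RARα peak and 11.6% overlapped one with a score over 20.

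The density of gene-poor regions fell with distance from the nearest gene start. There were 1934 regions at 100 to 200 kb, or 8.02 per Mb, 1354 at 200 to 500 kb, or 4.29 per Mb, 357 at 500 to 1000 kb, or 2.10 per Mb, and 83 beyond 1000 kb, or 1.23 per Mb. The median height hardly moved, from 30 reads in the first bin to 26 in the last. The farthest region lay 2250 kb from a gene start and was nearest Cdh20, which encodes a cadherin. By chromosome the density ranged from 2.57 regions per Mb on chromosome X to 9.54 per Mb on chromosome 13, leaving out chromosome Y with 4 regions. The mice were male and carried fewer copies of chromosome X than of an autosome, while the rule set the same floor of input for all chromosomes. The part of this in the density on chromosome X was not tested.

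**Figure D2:**
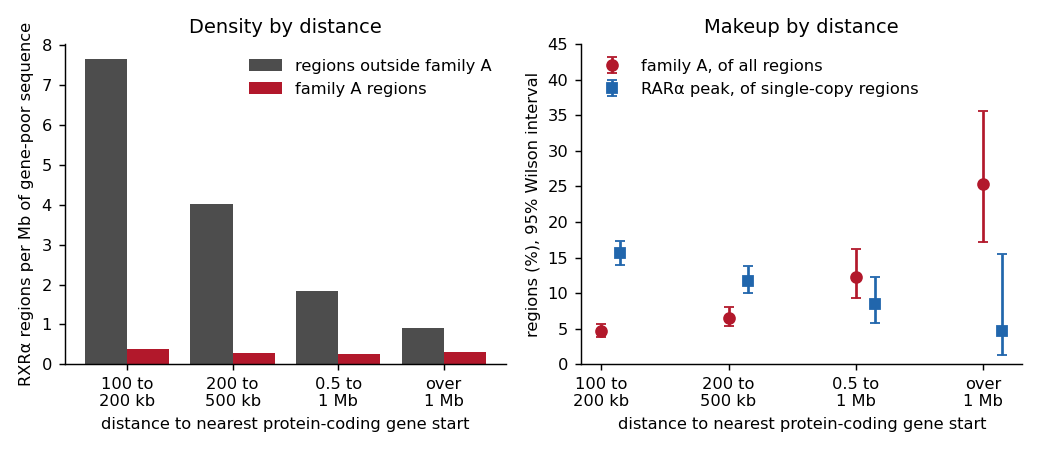
Left, RXRα regions per Mb of gene-poor sequence in 4 classes of distance to the nearest protein-coding gene start, outside family A (grey bars) and in family A (red bars). Right, the share of regions that belong to family A (circles) and the share of single-copy regions with a RARα peak of score over 20 (squares), with 95% Wilson intervals. The share of family A rises from 4.65% to 25.3% while its density stays flat.

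Gene-poor regions were spread unevenly over the stretches. There were 2104 gene-poor stretches, of which 960 held a region. Of the 1296 stretches of at least 100 kb, 505 held none, 602 held 1 to 5 and 71 held more than 10, and stretches with more than 10 accounted for 1153 regions (30.9%). The longest stretch without a region had 4.24 Mb of sequence. The distance from a gene-poor region to the next RXRα region of any class was 8208 bp at the median, and 55.2% (53.6 to 56.8) had one within 10 kb, against 68.9% of intergenic and 83.1% of near regions.

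The stretch with the most regions ran for 1623 kb on chromosome 15 (61916947 to 63540313) from Myc, the proto-oncogene transcription factor, towards Gsdmc, and held 45 regions with heights from 13 to 142 reads. For 42 of them Myc was the nearest start, at distances from 114 to 818 kb, and 31 of these 42 lay inside Pvt1, a long non-coding RNA gene at 61869542 to 62209651 on the same chromosome. At this locus RARα peaks with a score over 20 overlapped 10 of the 45 regions. The share was 11.6% over all gene-poor regions and 25.1% over all RXRα regions. The highest ratio of this stretch, 156, was at chr15:61995521-61995840, 179 kb from Myc.

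The second stretch ran for 1111 kb on chromosome 12 between Id2, an inhibitor of basic helix-loop-helix factors, and Rnf144a, and held 39 regions of 13 to 141 reads, 24 nearest Id2 and 15 nearest Rnf144a. The third ran for 484 kb on chromosome 13 from Gadd45g, a growth arrest and DNA damage response gene, to Diras2, and held 29 regions of 13 to 284 reads. The fourth ran for 479 kb on chromosome 9 from Wdr72 to Onecut1, the hepatocyte nuclear factor 6 gene, and held 29 regions of 13 to 156 reads, of which 12 overlapped a RARα peak with a score over 20. The fifth was the densest of the 5, with 27 regions of 14 to 254 reads in 233 kb on chromosome 13 between Ly86 and Rreb1, or 116 per Mb. RARα peaks with a score over 20 overlapped 7 regions of the second stretch, 6 of the third and 8 of the fifth. Over all gene-poor regions such a peak was found at 11.6%. None of the regions in these 5 stretches belonged to family A.

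**Figure D3:**
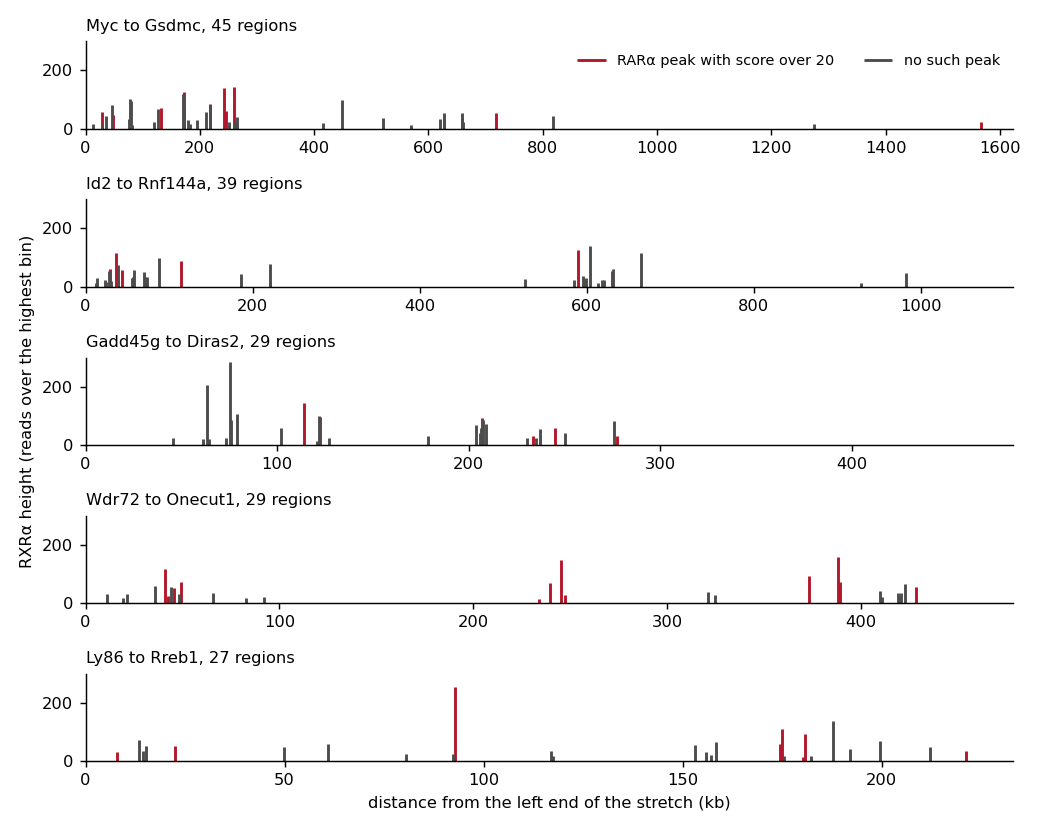
The 5 gene-poor stretches with the most RXRα regions, each from its left end, with 1 line per region whose height is the number of RXRα reads over the highest bin. Red lines overlap a RARα peak with a score over 20, and the groups of lines are set apart by long empty parts, as in the stretch between Id2 and Rnf144a.

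Myc was followed as the nearest gene start by Gadd45g with 25 regions, Id2 with 24, Tbl1xr1, a corepressor complex subunit, with 22, Sox9 with 19, B3galt1 and Ccdc122 with 18 each, and B130024G19Rik, Rreb1 and Zfp608 with 17 each. The heights around Gadd45g were the greatest of these 10 genes at the median, 56 reads, and the lowest median was 31 reads at B3galt1. Within 10 kb from the start, Myc had 2 RXRα regions, Gadd45g 5 and Id2 3, while B3galt1, B130024G19Rik and Rreb1 had 0. The nearest start is a position and does not say which gene, if any, a region acts on.

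In all 1210 protein-coding genes were the nearest start of a gene-poor region, which is 36.9% of the 3281 genes that border gene-poor space. Of 20 liver transcription factors, 10 bordered gene-poor space and all 10 of these were the nearest start of at least 1 region, with 74 regions in all. Onecut1 had 16 regions of 13 to 156 reads. A RARα peak with a score over 20 was found at 8 of these, against 11.6% of all gene-poor regions. Foxa2, the forkhead pioneer factor, had 12 regions of 13 to 208 reads. Ppargc1a, the coactivator PGC-1α, had 10 of 14 to 114 reads and no RXRα region within 10 kb from its start. Gata6 had 9, Bcl6 7, Nr5a2 and Tbx3 6 each, Prox1 5, Nfia 2 and Nfib 1.

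The region nearest Foxa2 with the highest ratio lay at chr2:147769889-147770368, 103 kb from the start, with 143 reads. That of Bcl6, a transcriptional repressor of lipid genes, lay at chr16:24090145-24090784, 102 kb from the start, with 190 reads. For Nr5a2, the liver receptor homolog that drives bile acid synthesis, it lay at chr1:139068737-139068992, 212 kb away, with 101 reads. The list was chosen with earlier results of these data known, and the length of the stretch next to a gene was not taken into account in these counts.

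In the share of bordering genes with a region, metabolic genes and the receptor genes themselves stayed near the background. Of 55 lipid and glucose genes, 13 bordered gene-poor space and 4 were the nearest start of a region (30.8%). Cyp7b1, the oxysterol hydroxylase of the alternative bile acid pathway, had 9 regions of 13 to 108 reads, Igf1, the liver-derived growth factor, 7 of 16 to 122, Cyp26a1, the retinoic acid hydroxylase, 4 of 37 to 90 and Irs2, an insulin receptor substrate, 2 of 44 and 94 reads. Genes that bordered gene-poor space and were the nearest start of 0 regions included Lpl, Pdk4, Insig2, Cd36, Elovl6, Gpam, Lipc and Lpin1. Of 28 nuclear receptor genes, 9 bordered it and 3 were the nearest start of a region, namely Nr2f2 with 4, the glucocorticoid receptor gene Nr3c1 with 3 and Rarb with 1. Rxra itself bordered gene-poor space with 0 such regions, and had 7 RXRα regions within 10 kb from its start. Per gene with a region, the median was 5.5 regions for the 4 lipid and glucose genes and 3 for the 3 receptor genes. Over all 1210 protein-coding genes with a region it was 2.

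Genes of adhesion and channel families were picked by the first letters of their symbols, so not all of them are neuronal. Of the 102 that border gene-poor space, 35 were the nearest start of a region (34.3%), with 108 regions in all. Cdh26 led with 11, followed by Cdh20, Cntn5 and Kcnj2 with 8 each. Of 69 bordering genes of developmental transcription factor families, 31 were the nearest start of a region (44.9%), with 144 regions. Among these Id2, Sox9, Foxa2, Gata6 and Sall3 led. The shares of these lists other than the liver factors thus ran from 30.8% to 44.9%, around the background of 36.9%.

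Few gene-poor regions lay inside a non-coding gene or within 1 kb from its start. The rule looked at protein-coding genes only, and with genes of every biotype in it 2029 of the 3728 regions remained. In total 199 regions (5.34%) lay inside a gene that is not protein-coding, and 97 of them lay in a lincRNA gene. The lincRNA gene Pvt1 alone held 31 regions. The share of gene-poor space inside such genes was not measured. Within 1 kb from the start of a gene that is not protein-coding lay 40 regions (1.07%), against 2.92% of intergenic and 7.22% of promoter regions. The 2 regions with the highest and the lowest ratio among the leading 5 of the 40 lay on the same side of the start of Gm10319, at 710 and 70 bp from it, between Mug2 and Klrg1, with 110 and 75 reads, in sequence of which 24.9% and 68.0% of the 32-base words occurred once in the genome. Those between them lay at the starts of Gm17351, upstream of Jmjd1c, with 90 reads, BC039771, upstream of Rin2, with 82 reads, and A230028O05Rik, between Lpp and Tprg, with 124 reads. The last overlapped a RARα peak with a score of 61.

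A recurrent sequence made up a larger share of gene-poor regions than of any other class. In 80.8% of gene-poor regions every 32-base word within 100 bp from the summit occurred once in the genome, and in 230 (6.17%) no word did. Of the 3728 regions, 3176 (85.2%) were called single-copy, with at least 90% of their words occurring once. Grouping of windows that shared at least 30 words of 16 bases placed 557 regions genome-wide in 1 family, family A. Of these, 244 were gene-poor, which is 6.55% (5.80 to 7.38) of gene-poor regions, against 2.51% (2.21 to 2.85) of intergenic, 0.290% (0.214 to 0.393) of intragenic, 0.408% (0.300 to 0.555) of near and 0.0378% (0.0104 to 0.138) of promoter regions. The intervals of gene-poor and intergenic regions did not overlap. Over all 42117 regions the share was 1.32% (1.22 to 1.44). Of the 706 copies of the sequence in the genome, 275 lay in gene-poor space, which covered 30.99% of the genome. The share also depends on the other regions, since all RXRα regions together numbered 4.70 per Mb in gene-poor space and 21.7 per Mb elsewhere. No repeat annotation was used, so family A is described by its sequence alone.

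In gene-poor family A regions the height ran from 13 to 77 reads with a median of 31, a narrower range than in single-copy gene-poor regions, where it ran from 13 to 284 reads with a median of 30. A word of a family A window occurred 164.5 times in the genome at the median, so reads could not be tied to 1 copy and the height of a single copy is uncertain. The genome held 706 copies, and how the tracks placed reads among them is not known. If each read was placed on only 1 of these copies, the mean over all 706 copies does not depend on which. Over the 416 bp around their middle RXRα averaged 16.4 reads per bin and input 0.715, a ratio of 22.9. Over the 275 gene-poor copies alone RXRα averaged 17.9 and input 0.659, a ratio of 27.2, which does depend on how reads were placed between gene-poor and other copies. About 2 kb away on both sides of the gene-poor copies RXRα averaged 0.501 and input 0.464. The input at the copies was near the genome mean of 0.603.

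Of the 275 gene-poor copies, 239 overlapped an RXRα region, or 86.9% (82.4 to 90.4). The copies differed in how complete they were. Among 244 copies with at least 60 of the 216 words of 20 bases that define the family, 232 overlapped a region (95.1%), and among 22 copies with 20 to 59 such words 5 did (22.7%, 10.1 to 43.4), as did 2 of the 9 with 5 to 19. A pair of half-sites within 100 bp from the middle was present in 98.3% of the copies with a region and in 47.2% of the 36 without. The C/EBP-type motif (TTGCNNAA) was present in 92.5% and 69.4%, and the STAT-type motif (TTCNNNGAA) in 98.7% and 69.4%, in the same order. All 3 were more frequent in copies with at least 60 words than in those with 20 to 59, and the pair of half-sites was present in 100% of copies with at least 60 words and in 13.6% of those with 20 to 59, so the part of any 1 motif cannot be told apart from the rest of the sequence. The copies without a region still carried 7.39 RXRα reads per bin over 0.829 of input. The 216 words were themselves taken from windows under family A regions, so copies with a region tend to hold more of them by construction. Since the overlap is also with the regions that the rule selected, these shares are a description.

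Family A varied less with distance from genes than the other gene-poor regions. Its copies numbered 0.411 per Mb of gene-poor space at 100 to 200 kb from the nearest gene start, 0.330 at 200 to 500 kb, 0.277 at 500 to 1000 kb and 0.371 beyond 1000 kb. As the other regions thinned out, the share of gene-poor regions that belonged to family A rose from 4.65% (3.80 to 5.69) to 6.57% (5.37 to 8.02), 12.3% (9.31 to 16.1) and 25.3% (17.2 to 35.6). On chromosome X it was 31.4% (24.6 to 39.1), or 48 of 153 regions, against 5.43% (4.74 to 6.23) on the autosomes, and copies were denser there, at 0.906 against 0.299 per Mb. The lower copy number of chromosome X in male mice was not taken into account in this share. In the last class of distance 21 of 83 regions were of family A.

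RARα, measured in a library that the rule did not use, was found at 434 gene-poor regions, counting deposited peaks with a score over 20 that overlapped by at least 25% of the narrower interval. This was 11.6% (10.7 to 12.7) of gene-poor regions, beside 25.1% of all RXRα regions, 18.4% of intergenic, 17.6% of intragenic, 24.5% of near and 67.1% of promoter regions. With every deposited peak counted, the share was 38.9% in gene-poor regions and 86.7% in promoter regions. None of the 244 family A regions overlapped a RARα peak of any score, which allows a share of up to 1.23% by 3 counts of 244, or 1.55% by the upper Wilson limit. The deposited RARα list held 7630 gene-poor peaks, of which 0 had a window without a single-copy word and 12 had fewer than 50% of such words, so the list cannot show whether RARα was on family A, and single-copy regions are compared from here on.

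Among single-copy regions RARα overlapped 13.4% (12.3 to 14.6) of gene-poor, 20.7% (19.8 to 21.6) of intergenic, 18.3% (17.6 to 18.96) of intragenic, 26.6% (25.7 to 27.6) of near and 69.6% (68.3 to 70.9) of promoter regions. The share in gene-poor regions rose with RXRα height, from 5.02% (3.73 to 6.75) at 13 to 19 reads to 5.85% at 20 to 30 reads, 11.4% at 31 to 51, 23.2% at 52 to 99 and 48.5% (42.3 to 54.8) at 100 reads or more. At 100 reads or more the intervals of gene-poor, intergenic (45.2%, 41.6 to 48.7), intragenic (50.5%, 47.4 to 53.6) and near regions (51.7%, 48.2 to 55.2) overlapped, and only promoter regions stood higher, at 82.1% (76.2 to 86.9). At 13 to 19 reads the gene-poor share lay below those of intergenic (12.9%, 11.4 to 14.5), intragenic (8.58%, 7.66 to 9.59) and near regions (16.9%, 15.4 to 18.6), with intervals that did not overlap. At 52 to 99 reads the gene-poor interval (20.04 to 26.8) also lay below those of intergenic (27.2 to 31.6), intragenic (27.4 to 30.8) and near regions (34.02 to 38.5), so the lower share of RARα far from genes was found below 100 reads.

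**Figure D4:**
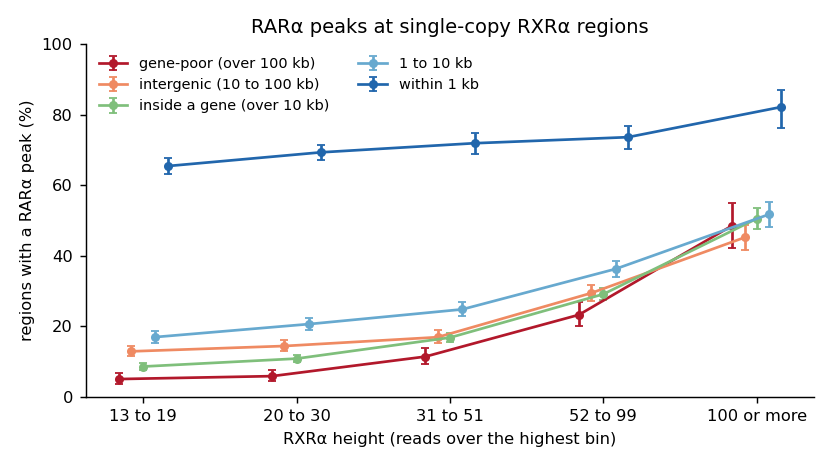
Share of single-copy RXRα regions that overlap a RARα peak with a score over 20, against the height of the region in reads over the highest bin, in 5 classes of position, with 95% Wilson intervals. The red line of gene-poor regions starts at 5.02% and joins the other distal classes at 48.5%, while the dark blue line of regions within 1 kb from a gene start stays above 65%.

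The share with RARα also fell with distance. Among single-copy gene-poor regions it was 15.6% (13.9 to 17.4) at 100 to 200 kb, 11.8% (10.02 to 13.8) at 200 to 500 kb, 8.45% (5.74 to 12.3) at 500 to 1000 kb and 4.65% (1.28 to 15.5) beyond, where only 43 regions remained. Seen from RARα, 1275 of its 32946 peaks with a score over 20 were gene-poor (3.87%), and 34.5% (31.95 to 37.2) of these overlapped an RXRα region.

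The highest RARα score at a gene-poor region was 146, at chr11:113026689-113026848, 383 kb from Sox9, the factor that marks biliary and progenitor cells, where RXRα had 52 reads. The next scores were 109 at chr11:22517633-22517664 near Tmem17 with 24 RXRα reads, 100 at chr2:11253313-11253344 near Prkcq with 23 reads, 91 at chr13:52319073-52319360 near Diras2 with 29 reads and 90 at chr15:37050401-37050592 near Grhl2 with 34 reads. The RXRα heights at these 5 regions, 23 to 52 reads, were modest, while the 10 regions with the highest RXRα ratio had RARα scores of 25 or less.

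Half-sites were concentrated under the summits. A half-site lay within 100 bp from the summit in 68.5% (66.8 to 70.0) of single-copy gene-poor regions, against 35.4% of windows of the same length 1 kb away and 31.2% of windows placed every 20 kb in gene-poor space. The share was 67.9% in single-copy intergenic, 68.9% in intragenic, 67.8% in near and 50.3% (48.9 to 51.7) in promoter regions. It rose with height, from 60.8% (57.4 to 64.1) of gene-poor regions of 13 to 19 reads to 82.4% (77.1 to 86.7) of those with 100 or more. By position, 15.3% of single-copy gene-poor regions had a half-site in the 20 bp to the left of the summit and 3.40% in the 20 bp farthest to the left at 500 bp.

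**Figure D5:**
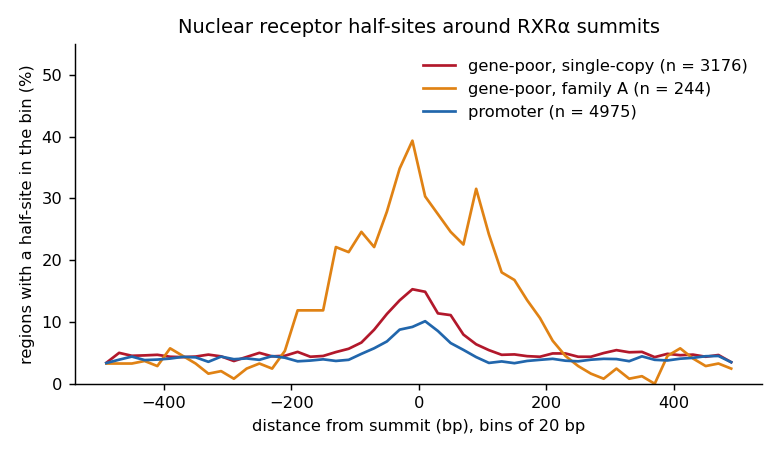
Share of regions with a half-site in each bin of 20 bp, against the distance from the RXRα summit in bp, for single-copy gene-poor regions (red), gene-poor family A regions (orange) and single-copy promoter regions (blue). The red line peaks at 15.3% and the blue at 10.1% next to the summit, and the orange line peaks at 39.3% and stays high over about 200 bp on each side.

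Direct repeats of exact half-sites were rare, and more frequent under summits than beside them. A repeat spaced by 0 to 5 bases was found in 3.57% (3.02 to 4.21) of gene-poor regions and in 3.75% (3.14 to 4.47) of the single-copy ones, against 0.630% of windows 1 kb away and 0.459% of windows placed every 20 kb. Among the other single-copy classes it was 4.46% (4.02 to 4.94) in intergenic, 4.52% (4.18 to 4.89) in intragenic, 4.97% (4.53 to 5.44) in near and 2.15% (1.78 to 2.59) in promoter regions, and the gene-poor interval overlapped those of intergenic and intragenic regions but lay below that of near and above that of promoter regions. By spacing, single-copy gene-poor regions held DR1, spaced by 1 base as bound by PPARα and RXRα, in 1.10%, DR2 in 0.661%, DR3 in 0.346%, DR4, the spacing of LXR and thyroid hormone receptors, in 0.630% and DR5, the classical spacing of RARα, in 0.756%, with 0.0945% or less 1 kb away for all of these but DR2, which had 0.126%. DR0 was found in 0.535% against 0.252%. Over all 42117 regions DR1 was found in 1.45% and DR0 in 1.04%. Inverted half-sites spaced by 1 base, the arrangement known for FXR, were found in 0.567% against 0.0315%.

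The regions with RARα held fewer direct repeats. A repeat spaced by 0 to 5 bases was found in 1.64% (0.798 to 3.35) of the 426 single-copy gene-poor regions with a RARα peak of score over 20 and in 4.07% (3.40 to 4.88) of the 2750 without, and DR5 in 0 of 426 and in 0.873% (0.587 to 1.30). The count of 0 allows a share of up to 0.704% by 3 counts of 426, or 0.894% by the upper Wilson limit. The share with any half-site was 65.7% (61.1 to 70.1) and 68.9% (67.1 to 70.6). The FOXA-type motif (TGTTTAC or TGTTTGC) was more frequent with RARα, at 25.4% (21.5 to 29.7) against 16.04% (14.7 to 17.5), and so was the much rarer CTCF-type motif, at 1.64% (0.798 to 3.35) against 0.327% (0.172 to 0.621).

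Motifs of other liver factors were also read on both strands. In single-copy gene-poor regions and in windows 1 kb away, the C/EBP-type motif (TTGCNNAA) was found in 22.3% and 9.98%, the FOXA-type motif in 17.3% and 7.30%, the STAT-type motif (TTCNNNGAA) in 14.4% and 7.21%, the AP-1-type motif (TGACTCA or TGAGTCA) in 6.74% and 3.15%, and the HNF4-type motif (CAAAGTCCA) in 2.58% and 0.409%. Over all 42117 RXRα regions these shares were 16.8%, 13.6%, 12.4%, 5.45% and 1.98% in the same order. Matches of different motifs may share bases. Gene-poor regions differed from promoter regions most in the GC box (CCGCCC), found in 2.99% (2.45 to 3.64) against 43.9% (42.6 to 45.3), and the ETS-type motif (CCGGAAG), in 0.693% against 9.13%. The CTCF-type motif was found in 0.504% of gene-poor and 1.73% of promoter regions. The median GC content within 100 bp from the summit was 45.5% in gene-poor and 59.5% in promoter regions.

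The C/EBP-type motif was more frequent in gene-poor regions than in the other classes. Its share of 22.3% (20.9 to 23.8) compared with 18.1% (17.2 to 18.9) in single-copy intergenic, 16.6% (15.96 to 17.2) in intragenic, 15.4% (14.7 to 16.2) in near and 8.62% (7.87 to 9.44) in promoter regions, with no overlap between the interval of gene-poor regions and any other. Median GC content around the summit also differed, at 45.5% in all gene-poor, 47.5% in all intergenic and 48% in all intragenic regions. The part of base composition in these shares was not tested. In family A, a half-site was found in 98.8% of gene-poor regions, the C/EBP-type motif in 84.8%, the STAT-type motif in 90.6% and a direct repeat in 0 of 244 regions. These follow from 1 shared sequence and count as 1 observation.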

How the data were processed

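ChIP-seq of RXRα, RARα and input was analysed in 1 library each. The authors deposited RXRα and input as signal, namely whole-number coverage in bins of 32 bp, with 5 bins per read. The tracks summed to 9.99994 M and 9.99929 M reads, so heights are counts only as far as that step kept them so. RARα was deposited as peaks with a score, cut here at 20, and a false discovery rate in percent. The submitters' processing notes name CASAVA 1.4, Bowtie, MACS and mm9. The methods name mm10 for alignment. All coordinates fit NCBI37/mm9, which was used with GENCODE M1. The study's text speaks of uniquely mapped reads, more of them for RXRα than the track sums to, while the tracks held signal on repeated sequence.

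Tracks were scaled to the same mean before calling. A summit is the highest bin. Motifs were read within 100 bp from it and 1 kb to its right. Word counts covered both strands. A copy of family A needed at least 5 of the words of 20 bases found in at least 25% of its regions. Genes bordering gene-poor space are the nearest protein-coding starts at the ends of stretches. Named items were the 10 highest ratios, 5 stretches, 3 regions on each side of each threshold, genes of the fixed lists with a region, 5 regions at non-coding starts, 5 RARα scores, 8 direct repeats and 10 nearest genes. The gene-poor regions, gene lists and motifs were chosen with earlier results of these data known, and family A was found in these data. Scripts were tested on simulated data. Tools were Python 3.11.15, numpy 2.4.6, pandas 2.3.3, scipy 1.17.1 and matplotlib 3.10.9.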

Additional observations from a re-analysis of the deposited data

How the results depend on the processing

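No paired analysis was possible because each antibody had 1 library. The cause of the changes below was not tested beyond what each setting does by construction. The number of gene-poor regions stayed within 1.5 times of 3728 under 9 of 15 alternatives. It was 7888 at a threshold of 10 times input and 2348 at 30 times, 6413 over 50 kb and 1794 over 200 kb from a gene start, 2029 with genes of every biotype and 2180 with regions at least 4 bins wide. The share with a RARα peak stayed within its interval under 8 of 19 alternatives. It was 7.64%, 10.2% and 14.7% at thresholds of 10, 15 and 30 times, 10.5% with mean input alone, 12.9% with bins joined only where they touch, 13.8% over 50 kb and 9.14% over 200 kb, 14.4% with regions at least 4 bins wide, 38.9% with every RARα peak and 0.778% with a score over 50. The share with a direct repeat stayed within its interval under 16 of 18 alternatives, and was 2.36% within 50 bp and 30.4% with 1 mismatch allowed. With 1 mismatch allowed, no share was measured in windows away from the summits or in other classes, so the 30.4% has no background beside it. Of 2 alternatives chosen after seeing the data, single-copy regions alone gave 13.4% with RARα, and leaving out family A changed none of the 3 values beyond these limits. Without replicates, variation between livers is unknown, and repeated sequence limits what a single copy can show.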

Other observations

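Smaller sequence families also recurred under gene-poor regions. In all 21 families held at least 2 gene-poor regions each and 353 regions together. After family A the next, family B, had 25 gene-poor regions and 1048 gene-poor copies, of which 25 overlapped an RXRα region (2.39%, 1.62 to 3.498), and RXRα averaged 1.19 reads per bin over all gene-poor copies against 0.501 of input. Family C had 23 gene-poor regions and 83 gene-poor copies, of which 19 overlapped a region (22.9%, 15.2 to 33.0), with RXRα at 6.88 and input at 0.664 reads per bin. A half-site was present in 96.0% of the gene-poor regions of family B and in 100% of those of family C, all of them regions that had passed the threshold. None of them overlapped a RARα peak, but as for family A the deposited RARα list cannot show this on repeated sequence. The gene-poor copies of families B and C were shorter at the median, 75 and 93 bases against 208 in family A. Their shares with a region thus stand beside 22.7% for the incomplete copies of family A with 20 to 59 of its words and 86.9% for all of its gene-poor copies.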
